A study of Mus musculus with 8 samples.

Results

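The unfolded protein response is the set of genes that cells switch on when unfolded proteins build up in the endoplasmic reticulum (ER), the compartment in which secreted and membrane proteins are folded. The 10 genes described here are Hspa5, Hsp90b1, Pdia4, Creld2, Sdf2l1, Dnajb9, Herpud1, Xbp1, Atf4 and Ddit3. They were chosen by name, as transcripts commonly read for ER stress, with earlier results of these data known. They were matched by symbol to the 55487 gene identifiers of the count table. All 10 were found and all 10 were among the 14353 genes with enough counts to be tested.

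Sensors in the ER membrane start this response. IRE1 (Ern1) splices the Xbp1 mRNA so that it encodes an active transcription factor, ATF6 is cut in the Golgi to release one, and PERK (Eif2ak3) phosphorylates eIF2α, which lowers translation in general while translation of Atf4 goes up. XBP1 and ATF6 mainly induce ER chaperones, folding enzymes and the machinery that removes misfolded proteins from the ER. ATF4 induces amino acid and stress genes and, with prolonged stress, CHOP (Ddit3), a factor linked to cell death. Hepatocytes, plasma cells and other secretory cells keep high levels of ER chaperones without acute stress. Gene counts do not show the splicing of Xbp1, the cleavage of ATF6 or the translation of Atf4, so only transcript levels are described.

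RNA of the stromal vascular fraction was sequenced from tumors of MC38, a mouse colorectal cancer line implanted under the skin, with 4 libraries from Bmal1+/+ mice and 4 from mice labelled Bmal1-/-. MC38 cells carried a GFP label and were removed by cell sorting, so by design Bmal1, a core factor of the circadian clock, was deleted in all cells of the host and not in the tumor cells. No treatment is named, the breeders carried 1 deleted Bmal1 allele, and strain, age, sex and hour of collection of these mice are not given in the sources used here. Library totals ranged from 14054825 to 18449143 counts.

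Several facts of the whole series bear on every value below. Bmal1 (Arntl) was higher, not lower, in the libraries labelled Bmal1-/-, with 32.6 ± 2.00 CPM against 1.55 ± 0.814 CPM (SD, n = 4 each). CPM here is the count scaled to library size after TMM normalization. Because the count of the targeted gene goes against its label, these samples are called the libraries labelled Bmal1-/- throughout. Counts per gene do not show whether the targeted part of Bmal1 is missing, so they do not settle the genotype. Transcripts specific to sex separated the libraries in the same way, with Xist at 942 ± 111 against 0.343 ± 0.276 CPM (SD, n = 4 each) and 4 Y chromosome genes at 0 in every Bmal1+/+ library and 121.1 to 144.5 CPM, summed, in the others, so that sex and genotype label cannot be told apart. The labelled tissue was not borne out by its markers: 10 hepatocyte markers summed to 97180 to 105400 CPM in Bmal1+/+ libraries against 55440 to 77570 CPM in the libraries labelled Bmal1-/-, whereas 9 fibroblast markers summed to 137.9 to 219.7 CPM against 103.7 to 109.3 CPM. Of the hepatocyte markers 1 was lower (Alb) and 3 were higher (Apoa1, Fgb and Fga) in the libraries labelled Bmal1-/-. Most of the Bmal1+/+ sum was Alb, with 64320 to 71870 CPM there against 12740 to 18830 CPM. The lower sum thus rests on Alb and does not show that hepatocyte markers fell in general. Summed macrophage (485 to 581.4 against 219.3 to 422.9 CPM), endothelial (207.9 to 247.5 against 133.7 to 174.7 CPM) and plasma cell markers (267.8 to 408.2 against 176.3 to 207.1 CPM) were lower in the libraries labelled Bmal1-/-, without overlap. Of the plasma cell sum most was Sdc1, which hepatocytes also express. Of 7 epithelial and tumor cell markers, summing to 192.8 to 238.5 CPM against 235.4 to 374.6 CPM, Krt20 was at or under 3 counts in every library. Most of this sum was Krt8 (mean 146.0 against 167.1 CPM) and Krt18 (66.4 against 91.4 CPM), and neither passed the test described below. Of the 5 markers tested, 2 were lower (Epcam and Krt19) and 1 higher (Cdh1), so the sum does not show that these markers rose in general. Replicate 4 of the libraries labelled Bmal1-/- stood apart, with 12 acute-phase genes summing to 67020 CPM against 10130 to 12550 CPM in the other 3 and 7672 to 9856 CPM in Bmal1+/+ libraries. In the sample titles this library is also numbered out of sequence after the other 3. The part of cell makeup and of this library in the differences below was not tested, beyond the values given without it. In bulk RNA, fewer cells of a type and less RNA per cell cannot be told apart.

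The DNA elements that the response is known to use were looked up in front of the members' start sites, so that members that passed the test and members that did not can be read beside their sequence. The RefSeq sequences (GRCm38.p6) of the 250 bases before the annotated start were searched on both strands, and all 10 members had one. For Pdia4 the sequence after this start was not found in a GENCODE transcript. Its window (chr6:47813513-47813762, - strand) lies beyond the GENCODE gene, which ends at 47813430, so its lack of a match depends on the start used. The ER stress response element (ERSE), which ATF6 binds together with NF-Y, was written as CCAAT, any 9 bases and CCACG, and 0.113% of 32851 windows held it. Among the members it lay in Hspa5, in Creld2 and, as 2 copies, in Hsp90b1. The next lines show it in capitals, 5′ to 3′ on the strand of the gene. On the opposite strand it reads CGTGG first and ATTGG last. For Hspa5 a stretch of 30 bases and for Hsp90b1 the 185 bases before the first annotated GENCODE exon are shown.
Hspa5 (chr2:34772020-34772049, + strand): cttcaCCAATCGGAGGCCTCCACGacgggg
Creld2 (chr15:88819396-88819645, + strand): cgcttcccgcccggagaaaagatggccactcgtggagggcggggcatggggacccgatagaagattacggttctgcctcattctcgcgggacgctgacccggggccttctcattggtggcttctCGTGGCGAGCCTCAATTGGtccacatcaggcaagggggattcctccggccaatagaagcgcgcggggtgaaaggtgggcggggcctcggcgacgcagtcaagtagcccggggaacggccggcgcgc
Hsp90b1 (chr10:86705510-86705694, - strand): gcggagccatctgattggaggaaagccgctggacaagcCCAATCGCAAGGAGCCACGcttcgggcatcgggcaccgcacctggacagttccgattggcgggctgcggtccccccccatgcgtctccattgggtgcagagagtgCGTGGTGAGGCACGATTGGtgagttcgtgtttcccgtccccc

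Herpud1 held the shorter ERSE-II (ATTGG, any base, CCACG), found in 0.0304% of windows, and upstream of it on the opposite strand the C/EBP-ATF element read by ATF4 (TGATG, any base, AA), found in 3.45%. Dnajb9 held an E-box (CACGTG), the letters that BMAL1 with CLOCK binds, found in 6.02% of windows. The matches do not overlap each other. No member held the core TGACGTGG of the element bound by XBP1, found in 0.563% of windows. Sdf2l1, the member with the largest fold change, held none of the 5 motifs within 250 bases, and its window is shown for comparison without capitals. For Dnajb9 only 30 bases are shown since its window lies within a GENCODE exon.
Herpud1 (chr8:94386179-94386428, + strand): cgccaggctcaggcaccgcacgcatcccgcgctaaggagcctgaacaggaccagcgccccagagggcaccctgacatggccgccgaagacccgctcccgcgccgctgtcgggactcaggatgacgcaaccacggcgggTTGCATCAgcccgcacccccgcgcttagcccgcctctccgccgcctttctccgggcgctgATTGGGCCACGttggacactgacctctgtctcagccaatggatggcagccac
Dnajb9 (chr12:44210158-44210187, - strand): acaacagttttcCACGTGcgcgtagggcgc
Sdf2l1 (chr16:17132384-17132633, - strand): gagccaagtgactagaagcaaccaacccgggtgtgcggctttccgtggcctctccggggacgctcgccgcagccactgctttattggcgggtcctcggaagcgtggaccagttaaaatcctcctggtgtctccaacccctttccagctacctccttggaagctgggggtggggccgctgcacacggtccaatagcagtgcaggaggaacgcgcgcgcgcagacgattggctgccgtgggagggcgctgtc

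A match is a string of letters, not a bound site, and no match says only that these letters are not in the window.

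The 10 transcripts did not move as a block. Sdf2l1 and Pdia4 rose and Dnajb9 and Ddit3 fell in the libraries labelled Bmal1-/-, while Hspa5, Hsp90b1, Herpud1, Xbp1, Atf4 and Creld2 did not pass the test, which was edgeR's quasi-likelihood test with a Benjamini-Hochberg adjusted p below 0.05 over all 14353 genes. So 2 of 10 were higher and 2 of 10 lower, where 14.9% of all genes tested were higher and 16.2% lower. The members' counts are close to this background. By the study's own criterion, an absolute log2 fold change above 1 with an unadjusted p below 0.05, 1 member was higher (Sdf2l1) and 0 were lower, against 5.41% and 8.71% of all genes. By edgeR's unadjusted p below 0.05, 4 members were higher and 2 lower, against 21.2% and 21.1% of all genes. The median log2 fold change was 0.22 over the members and 0.02 over all genes tested. Without replicate 4 of the libraries labelled Bmal1-/-, 3 members were higher and 2 lower, with Creld2 as the added call, against 15% and 16.9% of the 14775 genes then tested.

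**Figure D1:**
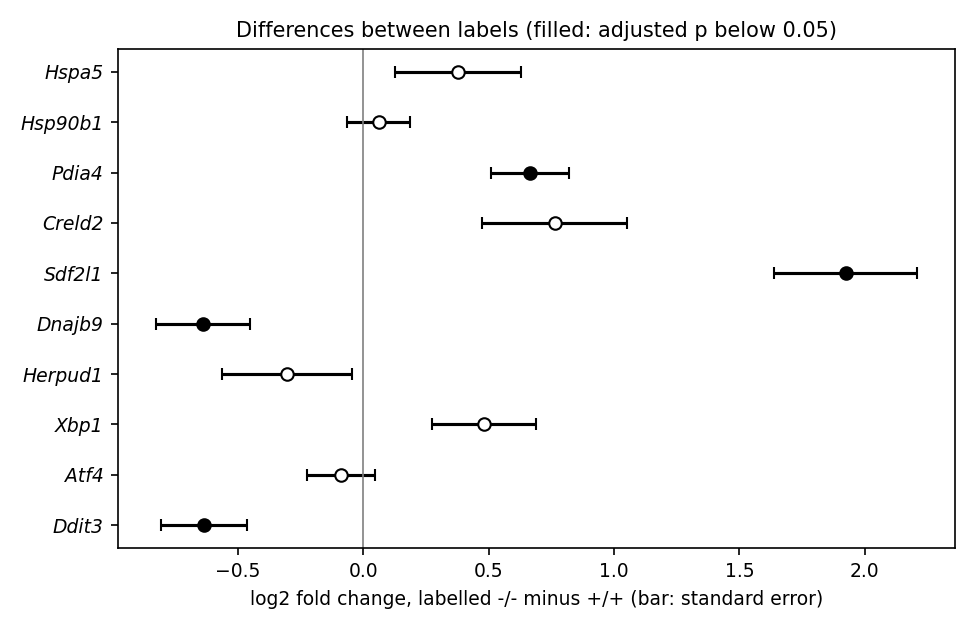
Log2 fold change of each of the 10 genes between the libraries labelled Bmal1-/- and the Bmal1+/+ libraries, with its standard error; filled circles passed an adjusted p below 0.05 in edgeR's quasi-likelihood test. Sdf2l1 at 1.92 stands to the right of Creld2 at 0.76, and Dnajb9 and Ddit3 are the filled circles left of 0.

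Of the 5 members that are ER chaperones or folding factors, Hspa5 and Hsp90b1 had the highest CPM. Hspa5, on chromosome 2 from 34771970 to 34777547 (GRCm38), encodes BiP, the HSP70 of the ER lumen and the regulator that holds the 3 sensors inactive. It had 635, 401, 720 and 482 CPM in Bmal1+/+ replicates 1 to 4 and 469, 844, 961 and 634 CPM in the libraries labelled Bmal1-/-. Replicates 2 and 3 of the latter were above every Bmal1+/+ library and replicate 1 was lower than 3 of them, so the groups overlapped. The log2 fold change was 0.38 (standard error 0.25, edgeR's adjusted p = 0.28), and under the 18 alternatives the adjusted p ranged from 0.11 to 0.59.

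Hsp90b1, on chromosome 10 from 86690209 to 86705509, encodes GRP94, the HSP90 of the ER, and had the smallest spread of the abundant members. It had 705, 628, 714 and 680 CPM in Bmal1+/+ libraries and 624, 681, 810 and 730 CPM in the libraries labelled Bmal1-/-. The groups overlapped, with a log2 fold change of 0.06 (standard error 0.12, edgeR's adjusted p = 0.74). The estimate turned to -0.02 in 1 of the 18 alternatives, the fit that left out the third library labelled Bmal1-/-. The gene overlaps 3 other annotated genes, among them 1810014B01Rik on the opposite strand, a pseudogene.

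Pdia4, on chromosome 6 from 47796141 to 47813430, encodes ERp72, a protein disulfide isomerase that forms and rearranges disulfide bonds. It had 154, 119, 162 and 116 CPM in Bmal1+/+ libraries and 175, 221, 248 and 230 CPM in the libraries labelled Bmal1-/-. All 4 of the latter were above the highest Bmal1+/+ library. Pdia4 rose 1.58-fold (log2 fold change 0.66, standard error 0.15, edgeR's adjusted p = 0.0098), and it passed under all 18 alternatives, with adjusted p up to 0.033.

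Sdf2l1, on chromosome 16 from 17130138 to 17132383, encodes a small ER protein that works with an ER-resident HSP40 partner of BiP. It had 13.7, 7.36, 17.8 and 9.30 CPM in Bmal1+/+ libraries and 30.7, 45.8, 59.3 and 46.6 CPM in the libraries labelled Bmal1-/-. All 4 of the latter were above the highest Bmal1+/+ library, with means of 12.0 ± 4.66 and 45.6 ± 11.7 CPM (SD, n = 4 each). Sdf2l1 rose 3.79-fold (log2 fold change 1.92, standard error 0.28, edgeR's adjusted p = 9.7e-04), and its log2 fold change stayed between 1.75 and 2.17 under the 18 alternatives, with adjusted p up to 0.0051.

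Creld2, on chromosome 15 from 88819646 to 88826683, encodes a secreted and ER-resident protein that associates with misfolded proteins. It had 28.4, 19.98, 44.5 and 17.6 CPM in Bmal1+/+ libraries and 46.2, 55.96, 53.7 and 31.6 CPM in the libraries labelled Bmal1-/-. Replicate 4, the library with the acute-phase genes, had the lowest of the latter 4 values and the only one under the highest Bmal1+/+ library. The log2 fold change of 0.76 (standard error 0.29, edgeR's adjusted p = 0.071) did not pass. It passed in 6 of 18 alternatives: DESeq2 (adjusted p = 0.036), edgeR's likelihood ratio test (0.039), limma-voom (0.049), the replicate block (0.023), and edgeR's fits without replicate 3 of the Bmal1+/+ libraries (0.010) or without replicate 4 of the libraries labelled Bmal1-/- (0.035).

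**Figure D2:**
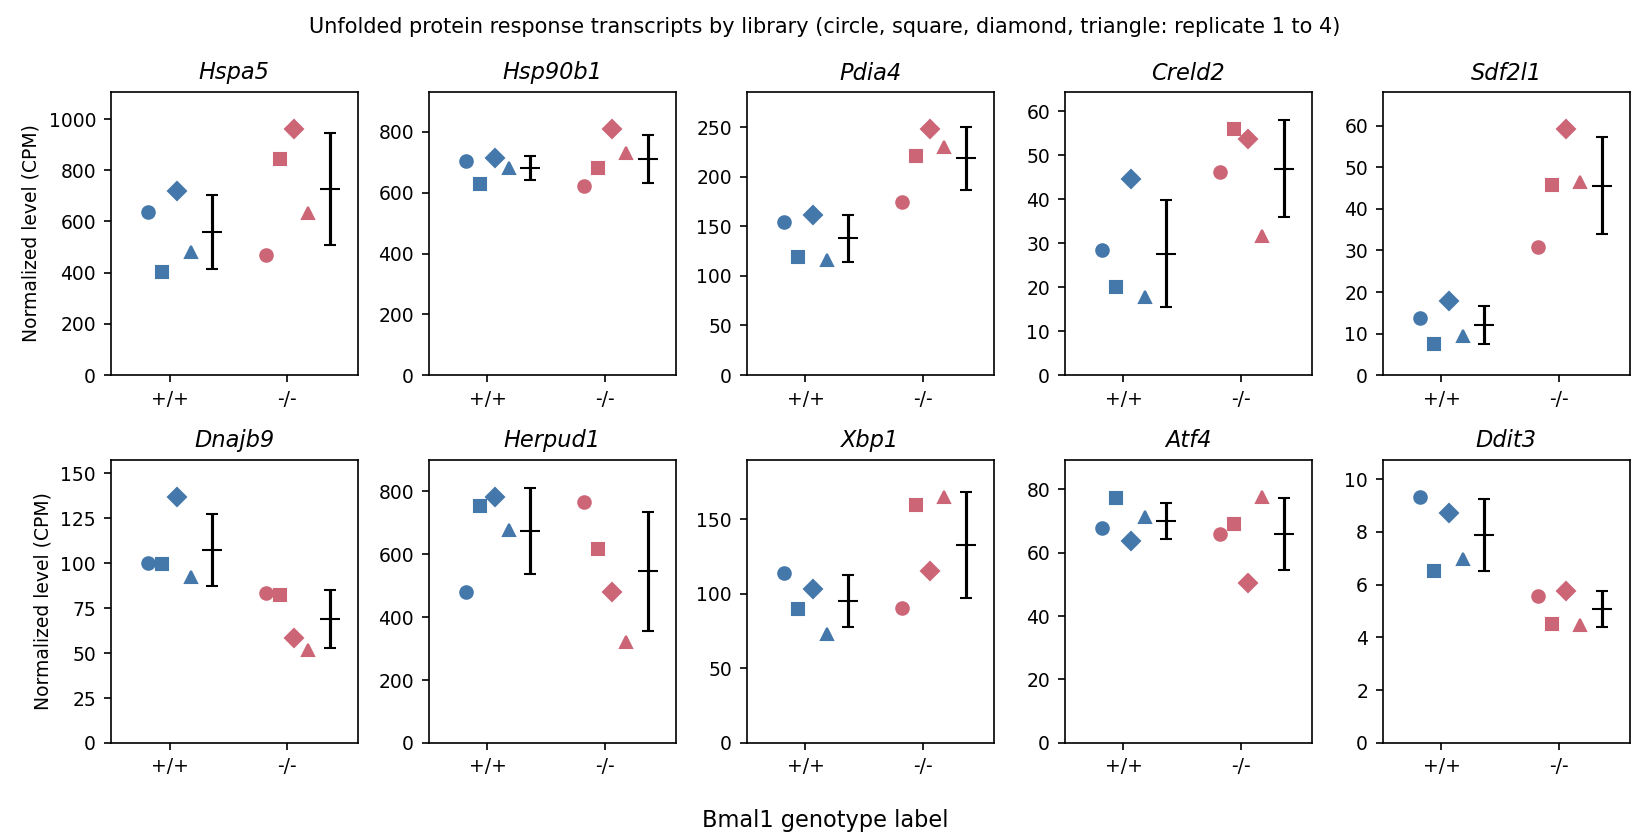
Level of each of the 10 genes in every library, in TMM-scaled CPM on axes that start at 0; blue symbols are Bmal1+/+ libraries, red symbols the libraries labelled Bmal1-/-, and the black bars the mean ± SD of 4. Red and blue symbols do not overlap for Pdia4, Sdf2l1, Dnajb9 and Ddit3, the members that passed the test, and overlap for the other 6 genes. How many of all genes tested do not overlap was not counted, so the lack of overlap only describes these values.

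Dnajb9 and Herpud1 act in clearing misfolded proteins from the ER, and neither was higher. Dnajb9, on chromosome 12 from 44205559 to 44210326, encodes ERdj4, an HSP40 partner of BiP that is induced by XBP1 and restrains IRE1. It had 100.3, 99.8, 137.0 and 92.5 CPM in Bmal1+/+ libraries and 83.6, 82.3, 58.1 and 51.8 CPM in the libraries labelled Bmal1-/-. All 4 of the latter were under the lowest Bmal1+/+ library. Dnajb9 fell 1.56-fold (log2 fold change -0.64, standard error 0.19, edgeR's adjusted p = 0.027). The call was lost when replicate 3 was left out, either that of the Bmal1+/+ libraries (adjusted p = 0.069) or that of the other group (adjusted p = 0.066).

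Herpud1, on chromosome 8 from 94386438 to 94395377, encodes an ER membrane protein that assembles the degradation complex around the ubiquitin ligase HRD1. It had 480, 754, 783 and 678 CPM in Bmal1+/+ libraries and 766, 616, 480 and 322 CPM in the libraries labelled Bmal1-/-. The groups overlapped over most of their range, and the lowest value was again in the library with the acute-phase genes. The log2 fold change was -0.30 (standard error 0.26, edgeR's adjusted p = 0.41), and under the 18 alternatives the adjusted p stayed at or above 0.17. An annotated antisense gene, Gm15890, overlaps Herpud1.

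Of the 3 transcription factors among the members, Ddit3 passed the test. Xbp1, on chromosome 11 from 5520659 to 5525893, had 114, 89.9, 103.6 and 73.3 CPM in Bmal1+/+ libraries and 90.7, 160, 116 and 165 CPM in the libraries labelled Bmal1-/-. Replicates 2 to 4 of the latter were above every Bmal1+/+ library, and replicate 1 lay among them. The log2 fold change was 0.48 (standard error 0.21, edgeR's adjusted p = 0.11), and of the 18 alternatives it passed in 1, with that replicate 1 left out (adjusted p = 0.033).

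Atf4, on chromosome 15 from 80255184 to 80257541, had 67.8, 77.2, 63.6 and 71.4 CPM in Bmal1+/+ libraries and 65.8, 69.1, 50.5 and 77.6 CPM in the libraries labelled Bmal1-/-. Both the highest and the lowest of the 8 values were in the libraries labelled Bmal1-/-. The log2 fold change was -0.09 (standard error 0.13, edgeR's adjusted p = 0.65), and it turned to 0.01 in 1 of the 18 alternatives, again without passing.

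Ddit3, on chromosome 10 from 127290774 to 127296288, was the least abundant member, with between 65 and 155 counts per library. It had 9.33, 6.53, 8.73 and 6.96 CPM in Bmal1+/+ libraries and 5.56, 4.50, 5.76 and 4.48 CPM in the libraries labelled Bmal1-/-. All 4 of the latter were under the lowest Bmal1+/+ library. Ddit3 fell 1.55-fold (log2 fold change -0.63, standard error 0.17, edgeR's adjusted p = 0.019). The call was lost without replicate 1 (adjusted p = 0.060) or 3 (0.051) of the Bmal1+/+ libraries or without replicate 2 of the libraries labelled Bmal1-/- (0.058). Ddit3 overlaps Mars on the opposite strand, and the sources used here do not state whether strand was used in counting. Mars had the opposite direction, with a log2 fold change of 0.75 (edgeR's adjusted p = 2.6e-04). A second, shorter Ddit3 entry (from 127290829 to 127293753) had 1 count in every library.

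Levels between genes were compared per transcript length, in the FPKM the authors deposited. In Bmal1+/+ libraries the order by mean FPKM was Herpud1 (133.8), Hsp90b1 (125), Hspa5 (79.9), Pdia4 (49.8), Dnajb9 (37.4), Creld2 (20.1), Xbp1 (17.5), Atf4 (16.9), Sdf2l1 (10.8) and Ddit3 (3.40). Only 2 gaps in this order were free of overlap between the libraries of neighbours, that from Hsp90b1 to Hspa5 and that from Sdf2l1 to Ddit3. In the libraries labelled Bmal1-/- the order was Hsp90b1 (132.6), Herpud1 (111.2), Hspa5 (105.4), Pdia4 (80.1), Sdf2l1 (41.4), Creld2 (34.7), Xbp1 (24.8), Dnajb9 (24.5), Atf4 (16.2) and Ddit3 (2.22). There the ranges of neighbours were apart between Pdia4 and Sdf2l1 and between Atf4 and Ddit3. Sdf2l1 thus moved from place 9 to place 5, and Dnajb9 from place 5 to place 8.

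**Figure D3:**
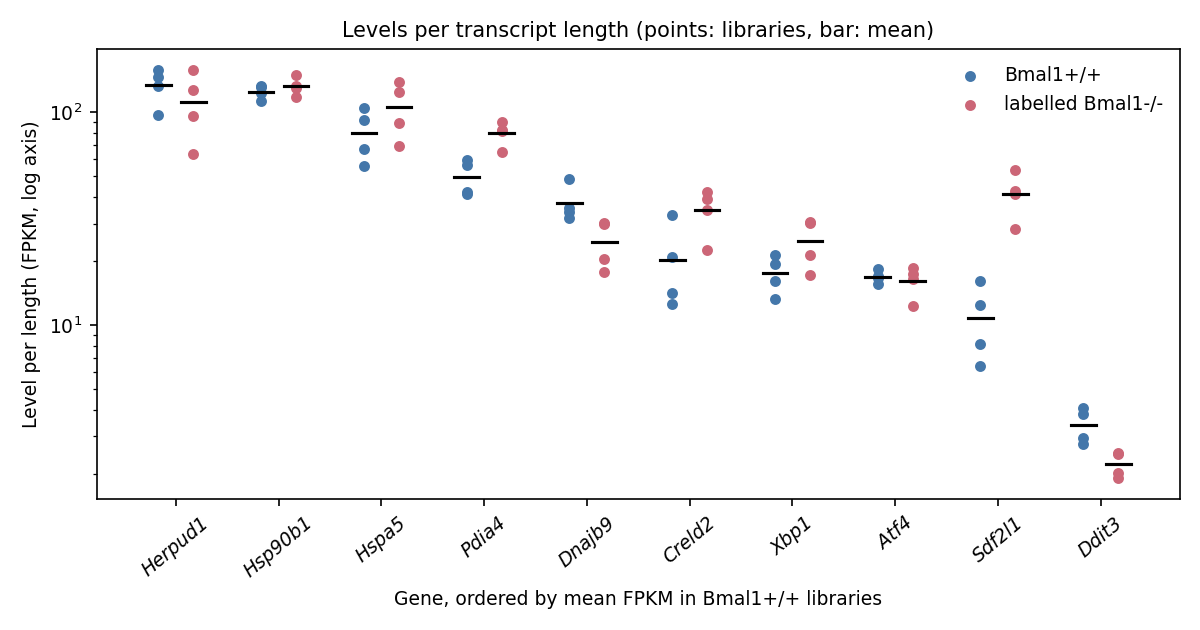
Level per transcript length of each gene in FPKM on a log axis, with genes ordered by their mean in Bmal1+/+ libraries; points are libraries and bars are means of 4. Herpud1, Hsp90b1 and Hspa5 are at the top with either label, and the red points of Sdf2l1 lie above its blue points.

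The rest of the pathway was described with 5 lists of other genes, 108 in all, of which 102 were tested. The lists too were chosen with earlier results of these data known. Together 35 (34.3%) were higher and 9 (8.82%) lower in the libraries labelled Bmal1-/-, against 14.9% and 16.2% of all genes tested. The median log2 fold change was 0.20, against 0.02 over all genes tested. By list, all 9 lower genes were PERK-ATF4 targets, and 31 of the 35 higher ones belonged to ER folding, translocation and degradation.

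Against 14.9% higher and 16.2% lower of all genes tested, 1 (9.09%) of 11 sensors and ER-bound factors was higher and 0 were lower. That gene was Atf6b, a relative of Atf6 that is also cut in the Golgi, with 13.4 to 19.9 CPM in Bmal1+/+ libraries and 28.7 to 32.0 CPM in the others (log2 fold change 0.80, edgeR's adjusted p = 0.0016). The 3 sensors themselves did not pass: the log2 fold change was -0.31 for Ern1 (edgeR's adjusted p = 0.053), -0.02 for Eif2ak3 (0.96) and -0.01 for Atf6 (0.96). Ern1 had 72.3 to 88.5 CPM in Bmal1+/+ libraries and 55.7 to 69.5 CPM in the others, without overlap, and it was called lower in 5 of the 18 alternatives. One of these was the fit without the library with the acute-phase genes, which had 1 higher and 1 lower in the list.

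Of 23 ER chaperones and folding enzymes besides the members, 12 (52.2%) were higher and 0 lower, against 14.9% and 16.2% of all genes. The median log2 fold change was 0.49. Manf, a secreted ER stress factor that binds BiP, had the largest change of those named by rule, with 24.0 to 72.0 CPM in Bmal1+/+ libraries and 77.8 to 119.0 CPM in the others (log2 fold change 1.05, standard error 0.29, edgeR's adjusted p = 0.020). Fkbp11, a prolyl isomerase (0.99), Pdia6, a disulfide isomerase (0.91), and Hyou1, an HSP70-like exchange factor for BiP (0.90), followed on the log2 scale. Each of these 4 genes was higher in all 4 libraries labelled Bmal1-/- than in any Bmal1+/+ library. Without the library with the acute-phase genes the list had 12 higher and 0 lower. The HSP70 and HSP90 relatives outside the ER (Hspa8, Hspa9, Hspa1a, Hspa1b, Hsp90aa1, Hsp90ab1 and Trap1) had 0 of 7 called by edgeR, 1 lower at an unadjusted p below 0.05, 0 to 1 called lower under the alternatives, and a median log2 fold change of -0.14. Hspa1a and Hspa1b are near-identical copies whose reads cannot be fully separated.

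Of 24 genes of translocation into the ER, signal peptide cleavage and N-glycosylation, 13 (54.2%) were higher and 0 lower. The median log2 fold change was 0.31, and the shares over all genes were 14.9% higher and 16.2% lower. The signal peptidase subunits Spcs2 (0.86) and Sec11c (0.79), the translocon subunit Sec61b (0.81) and the translocon-associated Ssr4 (0.61) had the largest log2 changes among the genes over 5 CPM. Of 19 genes of ER-associated degradation, 6 (31.6%) were higher and 0 lower, with a median of 0.18. The largest were Ube2g2, a ubiquitin-conjugating enzyme (0.76), Selenos, which recruits p97 to the ER (0.65), Edem2, a mannosidase that marks glycoproteins (0.63), and Erlec1, an ER lectin (0.36). The groups overlapped for Spcs2, with up to 49.05 CPM in Bmal1+/+ libraries and from 46.02 CPM in the others (edgeR's adjusted p = 0.034). They also overlapped for Ube2g2, with up to 37.38 CPM and from 30.96 CPM (edgeR's adjusted p = 0.047). Without the library with the acute-phase genes, 12 translocation and 6 degradation genes were higher and 0 were lower. At an unadjusted p below 0.05, edgeR gave 13 higher chaperone, 15 higher translocation and 9 higher degradation genes, and 0 lower in each list. The shares of all genes at that threshold were 21.2% higher and 21.1% lower. The 18 alternatives also gave 0 lower genes in these lists. Pdia6, Manf, Spcs2, Erlec1 and Ube2g2 each overlap another annotated protein-coding gene.

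Of 31 PERK-ATF4 targets 25 were tested, and 9 (36%) were lower and 3 (12%) higher, against 16.2% and 14.9% of all genes. The share of higher genes was thus close to that of all genes. The median log2 fold change was -0.06. Vldlr, a lipoprotein receptor induced through PERK, had 12.3 to 25.1 CPM in Bmal1+/+ libraries and 1.36 to 1.99 CPM in the others (log2 fold change -3.58, standard error 0.27, edgeR's adjusted p = 1.9e-05). Slc38a2, an amino acid transporter (-1.02, edgeR's adjusted p = 0.043), and Ppp1r15b, the constitutive eIF2α phosphatase subunit (-0.70, 6.1e-04), were also lower. The groups overlapped for Slc38a2, with 283.2 CPM in Bmal1+/+ replicate 1 and 419.6 CPM in replicate 1 of the others. They did not overlap for Ppp1r15b. Trib3, a pseudokinase induced by ATF4 and CHOP, was lower in the same direction as Ddit3 (log2 fold change -1.31, standard error 0.35, edgeR's adjusted p = 0.017). Atf3, named after its values were seen, had 4.94 to 6.92 CPM in Bmal1+/+ libraries and 0.610 to 1.21 CPM in the others (edgeR's adjusted p = 1.2e-04). These were 79 to 121 and 9 to 17 counts, and Atf3 entered the test through the Bmal1+/+ libraries.

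The 3 higher genes of this list were Atf5, a bZIP factor (1.32), Mthfd2, an enzyme of mitochondrial one-carbon metabolism (1.70), and Sars, seryl-tRNA synthetase (0.51). The last 2 were named after their values were seen. Mthfd2 was near the floor, with 7 to 15 counts in Bmal1+/+ libraries and 23 to 45 in the others. It entered the test through the latter, so its call and size carry little weight. Atf5 overlaps 2 other protein-coding genes. Chac1, which degrades glutathione, had a log2 fold change of 0.75 and did not pass (edgeR's adjusted p = 0.096), nor did Ppp1r15a, the stress-inducible eIF2α phosphatase subunit (-0.40, 0.14). Asns, asparagine synthetase, was too low to be tested, with at most 0.814 CPM in any library. The targets Psat1, Phgdh, Slc7a11, Nupr1 and Fgf21 were not tested for the same reason. Without the library with the acute-phase genes 9 were lower and 3 higher, of 27 tested. With at least 10 counts required in every library, 7 were lower and 2 higher, of 21 tested. Of all 12597 genes then tested, 2007 were lower and 1827 higher.

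**Figure D4:**
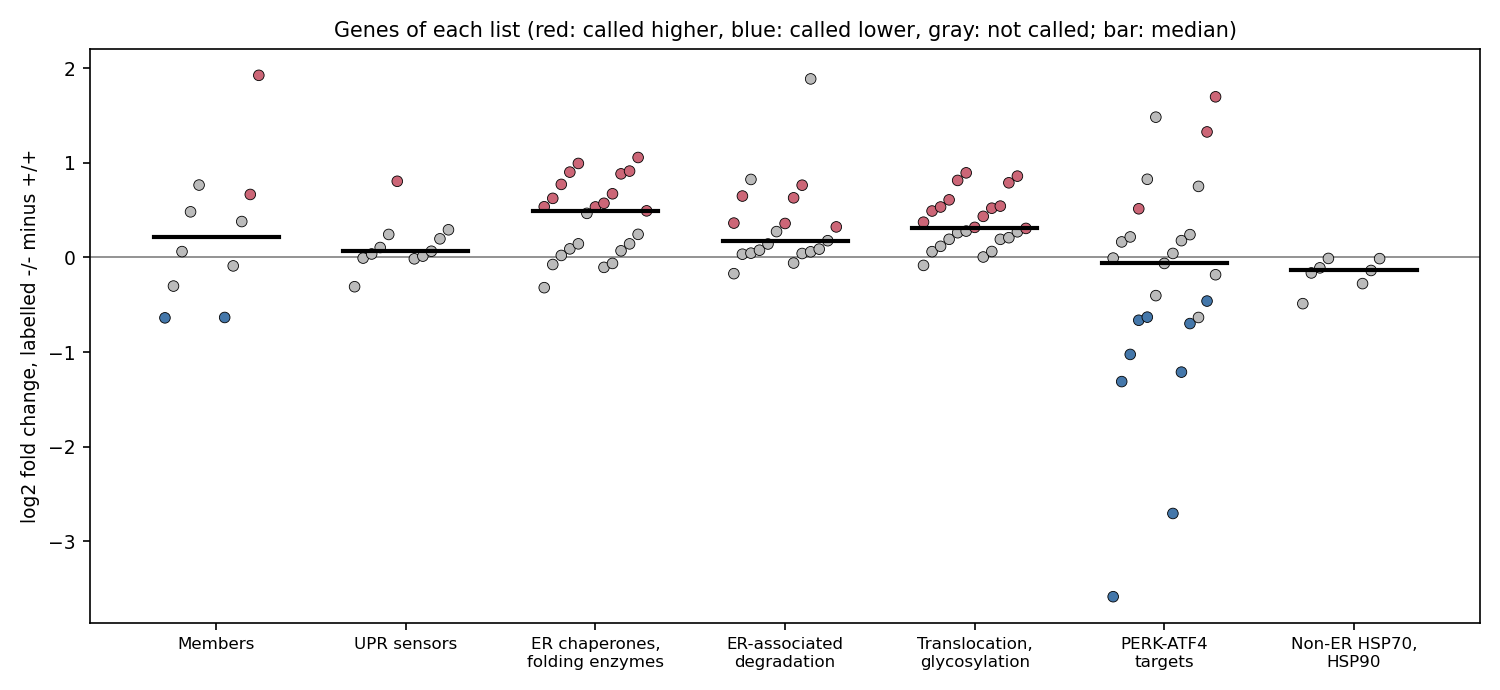
Log2 fold change between the libraries labelled Bmal1-/- and the Bmal1+/+ libraries for each tested gene of the 10 members, the 5 pathway lists and the HSP70 and HSP90 relatives outside the ER; red is called higher, blue called lower, gray not called, and bars are medians. Blue points appear in the member and PERK-ATF4 columns, and the 12 red points of the chaperone column lie above 0.

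The calls of the genes that held each element were counted. Besides the 3 members, 7 genes of the 87 with a window in the 5 lists held an ERSE (Calr, Canx, Dnajc3, Ero1lb, Pdia6, Derl3 and Syvn1). Of these 10 genes 3 were higher (Calr, Ero1lb and Pdia6) and 7 did not pass, among them all 3 members. The C/EBP-ATF element lay in 9 of 25 PERK-ATF4 targets with a window, and of all 12 genes that held it 8 were tested, 1 being higher and 2 lower. An E-box lay in 12 genes, of which 10 were tested, 4 being higher and 2 lower, Dnajb9 one of the latter. These counts describe small sets. Of all genes tested 14.9% were higher and 16.2% lower, and of the 5 lists together 34.3% and 8.82%. Whether the calls go with an element was not tested.

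How the members varied among libraries of the same label was a further measure. Each gene's log2 CPM was centred within its label, and the Pearson correlation was taken over the 8 libraries, as a description. The ER chaperones varied together: Hspa5 had r = 0.93 with Sdf2l1, 0.89 with Pdia4 and 0.82 with Hsp90b1, and Sdf2l1 had 0.95 with Pdia4. Replicate 3 with either label was the highest for Hspa5, Hsp90b1, Pdia4 and Sdf2l1. Herpud1 and Dnajb9 formed another pair (r = 0.78), and had r = -0.27 and 0.08 with Hspa5. Creld2 lay between these sets, with r = 0.72 with Dnajb9, 0.68 with Hspa5 and with Sdf2l1, 0.60 with Pdia4, 0.35 with Herpud1 and 0.28 with Hsp90b1. Atf4 had r = -0.62 with Hspa5 and -0.74 with Ddit3.

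**Figure D5:**
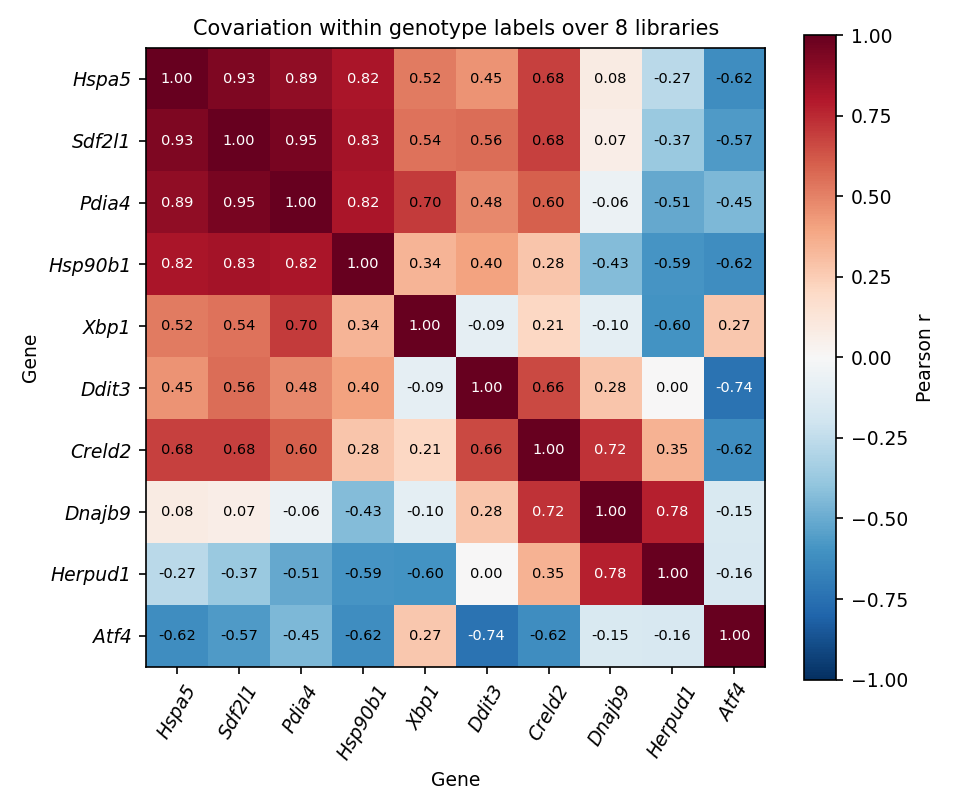
Pearson correlation between the 10 genes over 8 libraries, from log2 CPM centred within each genotype label; red is positive and blue negative. The top left block of Hspa5, Sdf2l1, Pdia4 and Hsp90b1 has r of 0.82 or more, and the row of Atf4 is mostly blue.

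Of the 10025 genes whose mean level reached 5 CPM, those outside the members most like Hspa5 by this measure were Znhit6 (r = 0.958), Ccdc85c (0.958), Txndc17 (0.955), Gm15638 (0.952) and Nr2f2 (0.944). Sdf2l1 ranked 10, Pdia4 30 and Hsp90b1 119 in the same order, whereas Herpud1 ranked 7136 and Atf4 9324. With 8 libraries and 2 label means removed, many genes reach a high r, and the libraries share their depth and cell makeup.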

How the data were processed

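RNA-seq of 4 Bmal1+/+ and 4 libraries labelled Bmal1-/- was used, grouped by the genotype labels. Per the paper's methods, the authors mapped reads to GRCm38 with HISAT2 and counted with StringTie. The submitters' processing notes name CASAVA 1.8 and TopHat2 2.0.6 instead. The deposited counts are whole numbers per gene without normalization. The deposited FPKM values equal counts divided by library total and gene length, with no TMM factor, and were used for levels between genes and as an alternative. Strand use in counting and the filter are not given in the sources used here.

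Symbols came from a reference table that matched 99.4% of 55487 identifiers, and coordinates from GENCODE on GRCm38. In R 4.3.3, edgeR 4.0.16 (filterByExpr, TMM, quasi-likelihood test) compared the labels over 14353 genes, with Benjamini-Hochberg adjustment over all of them. Log2 CPM used a prior count of 2. Standard errors were taken from the log2 fold change and the F statistic (fold change over the root of F). The test was tested on simulated data. Alternatives used DESeq2 1.42.0, limma 3.58.1, other normalizations and filters, and each library left out in turn. Plots used Python 3.11.15 and matplotlib 3.10.9.

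The members and gene lists were chosen with earlier results of these data known. Genes named were the members, the 4 largest called changes per list that had a mean level of 5 CPM or more, 3 sensors, 4 ATF4 targets, and the 5 genes most like Hspa5. The labels number the replicates without naming animals, so p-values measure the spread between these libraries, which may be technical.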

Additional observations from a re-analysis of the deposited data

Results flagged for a closer look

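In 68 groups of 4 libraries, over the members and the genes of the pathway named by rule, 2 held a library far from the other 3 by Dixon's test, where chance gives about 1 in 20 groups. Atf6 in replicate 1 of the Bmal1+/+ libraries had 101.8 CPM, and the nearest of the other 3 had 92.5 CPM. Sec11c in replicate 3 of the libraries labelled Bmal1-/- had 33.95 CPM, and the nearest other had 22.5 CPM. That library also had the highest Hspa5, Hsp90b1, Pdia4 and Sdf2l1 of the 8. No group of 4 values of the 10 members was among the 2.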

How the results depend on the processing

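Sdf2l1 and Pdia4 stayed called higher under all 18 alternatives. The count of members called lower ranged from 0 to 2 over the fits that each left out 1 library: it was 0 without replicate 3 of the Bmal1+/+ libraries and 1 without replicate 1 of them or without replicate 2 or 3 of the libraries labelled Bmal1-/-, with fewer samples in each fit. Over all alternatives members called higher ranged from 2 to 3, and of the pathway genes 6 to 10 were lower and 25 to 37 higher. By list, 9 to 12 chaperones, 8 to 14 translocation and 3 to 8 degradation genes were higher with 0 lower, 6 to 9 PERK-ATF4 targets were lower, and of the sensors 0 to 1 were lower and 1 to 2 higher. Scaling by library size only gave 2177 lower and 2282 higher of all genes tested, against 2322 and 2135, with a median log2 fold change of 0.05. With the replicate block 2 members were lower and 3 higher, and 6 pathway genes lower and 27 higher. Libraries with the same replicate number had correlations of -0.064, 0.063, 0.043 and 0.036 in their deviations. Libraries with different numbers reached -0.084 and 0.085. These values showed no pairing by number, but they cannot exclude a shared litter or batch. Asns had too few counts to be tested, and Ddit3, which was tested, had 65 to 155 per library.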

Other observations

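Some genes of ER-associated degradation that held an ERSE showed a wide spread and are given as values, chosen after they were seen. Derl3, a derlin of the ER membrane, had 0.835 ± 0.843 CPM in Bmal1+/+ libraries and 3.05 ± 1.99 CPM in the libraries labelled Bmal1-/- (SD, n = 4 each), with a log2 fold change of 1.89 (edgeR's adjusted p = 0.073). Syvn1, the ubiquitin ligase HRD1, had 70.97 ± 35.4 and 125.5 ± 25.4 CPM (SD, n = 4 each), with a log2 fold change of 0.82 (edgeR's adjusted p = 0.082). Ddit4, a stress gene of the PERK-ATF4 list, had 28.1 ± 20.4 and 78.4 ± 71.7 CPM (SD, n = 4 each), with a log2 fold change of 1.48 (edgeR's adjusted p = 0.18). The summed level of the 10 members ranged from 2203 to 2754 CPM in Bmal1+/+ libraries and from 2294 to 2843 CPM in the libraries labelled Bmal1-/-, so the groups overlapped.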
